A study of Mus musculus with 10 samples.

Results

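Surfactant and alveolar type 2 (AT2) genes were compared between mouse lungs exposed to increased pulmonary flow (IPF) and sham lungs. The set held 10 genes chosen by name, Sftpa1, Sftpb, Sftpc, Sftpd, Abca3, Lamp3, Napsa, Lpcat1, Slc34a2 and Nkx2-1, of 54532 genes in the table. All 10 passed the filter of a mean FPKM of at least 0.1, as did 20448 genes in all. Messenger RNA of whole lungs was sequenced from 10 WT mice, which the study's methods give as C57BL/6J, collected at postnatal day 30 (P30). In the 5 IPF mice the abdominal aorta was punctured into the inferior vena cava at P7, which opened a left-to-right shunt, and in the 5 sham mice the same operation was done without the puncture. The study asked whether such early flow load by itself remodels the small vessels of the lung. Both groups went through laparotomy and anesthesia, and no unoperated lungs were analysed here. Whole lung is a mixture, so a smaller number of AT2 cells and less RNA per AT2 cell cannot be told apart.

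AT2 cells are the cuboidal cells of the alveolus that make, store and recycle surfactant, the film of phospholipid and protein that keeps airspaces open at low volume. Surfactant proteins B and C are small hydrophobic proteins that help the lipid spread, whereas surfactant proteins A and D are collectins of innate defence. The lipid, rich in dipalmitoyl phosphatidylcholine, is packed with proteins B and C into lamellar bodies and secreted. AT2 cells also serve as progenitors of the flat alveolar type 1 cells during alveolar growth.

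The 10 genes were read deeply in every lung. FPKM gives sequenced fragments relative to the length of the gene and a library size, so levels can be compared between genes. Total reads on genes, recovered from the FPKM values, ranged from 16250190 to 19026843 in IPF and from 15483046 to 17818542 in sham. The least covered of the 10 genes, Nkx2-1, still had 2609 to 3738 reads per lung, and Sftpc had 160842 to 302210. Sham 1 stood somewhat apart, with a mean Spearman correlation of 0.912 with the other lungs against 0.929 to 0.932 for the other nine. Sham 1 also had 25486 genes above 0, against 22475 to 23575 in the other lungs. Results that rest on sham 1 are given with and without it. The groups also differed in sex-linked and clock genes. The X-inactivation RNA Xist averaged 34.1 FPKM ± 8.43 (SD, n = 5) in IPF and 0.0493 ± 0.0225 in sham, and the Y-linked Ddx3y had 0 reads in every IPF lung against 17.4 FPKM ± 3.07 in sham. The clock genes Arntl and Dbp were also divided, with 5.84 FPKM ± 1.5 against 0.366 ± 0.0633 for Arntl and 2.26 ± 0.707 against 26.4 ± 2.61 for Dbp. By Xist and Ddx3y every IPF lung read as female and every sham lung as male. The labels give no sex, and the study's methods say that pups of both sexes were used, balanced where feasible. The surgery, sex and the clock genes cannot be told apart in any comparison of the groups.

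Levels of the 10 genes spanned a 399-fold range in mean FPKM. Sftpc ranked first of all genes by its mean over the 10 lungs, Sftpb ranked 12 and Sftpa1 ranked 15. They were followed by the phosphate transporter Slc34a2 at rank 51, Sftpd at 110, Lamp3 at 194, Lpcat1 at 334, Napsa at 402, Nkx2-1 at 630 and Abca3 at 1320. The order was nearly the same in each lung. Of the neighbours in this order, only Lpcat1 and Napsa exchanged places, since Lpcat1 exceeded Napsa in 8 of 10 lungs. The ranges over all lungs also overlapped for Sftpb with Sftpa1 and for Sftpd with Lamp3, but the higher of each pair was higher in all 10 lungs. Each of these AT2 markers was present in every lung, the lowest value of all being 28.7 FPKM for Abca3 in sham 4.

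Most of the set did not differ between groups beyond the replicate spread. Only Lpcat1 passed the test, a limma fit to log2(FPKM + 0.1) with p-values adjusted over all 20448 genes by the Benjamini-Hochberg method and a limit of 0.05. It was higher in IPF, and 0 of the 10 genes were lower. Over all genes 3.71% were called higher and 2.14% lower, the background against which 1 called gene of 10 is read. At an unadjusted p under 0.05 limma gave 2 of the 10, Lpcat1 and Abca3, against 19.5% of all genes. None passed the study's further limit of an absolute log2 fold change above 1, which with the adjusted p held for 1.14% of all genes. The 5 IPF and 5 sham values did not overlap for 2 of the 10, Lpcat1 and Sftpb, against 7.29% of all genes. The median log2 difference was 0.016 for the 10 genes and 0.0016 for all genes tested, and 7 of the 10 differed by less than 0.1.

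**Figure D1:**
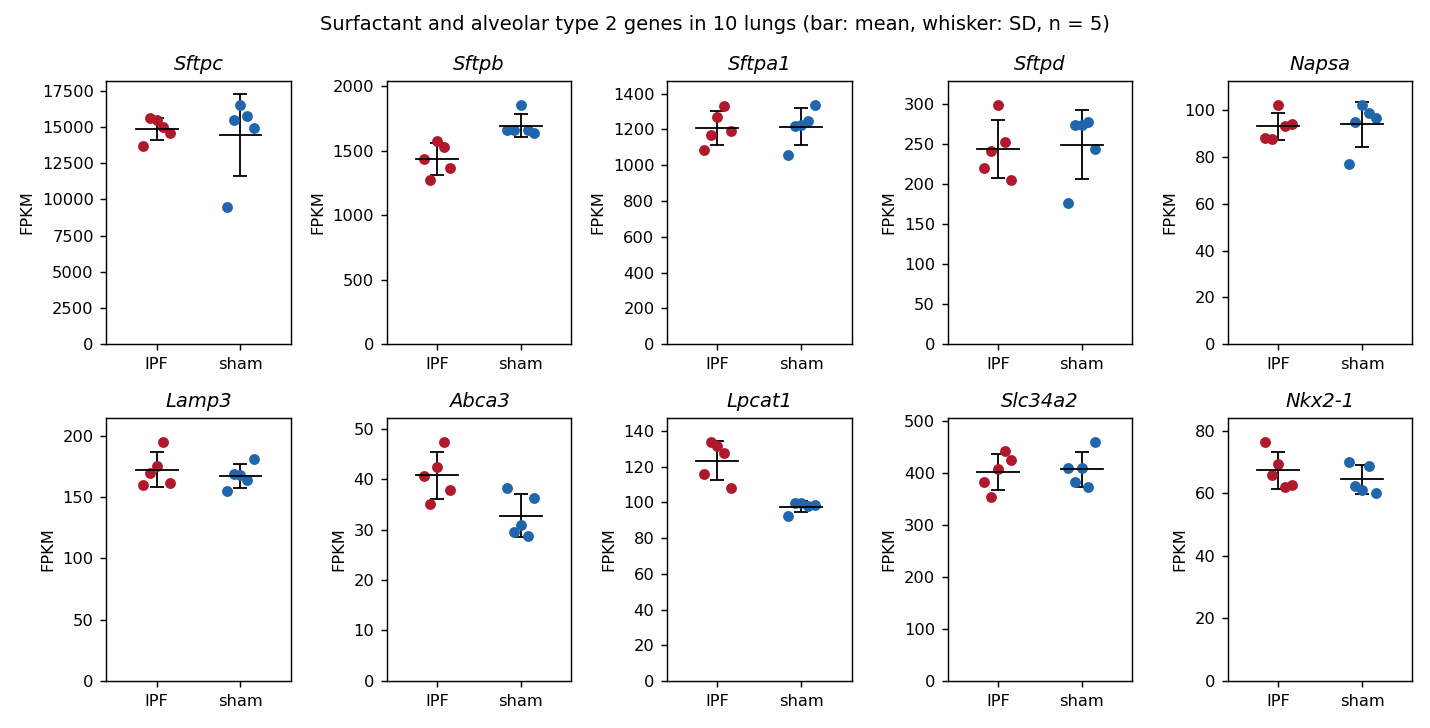
FPKM (vertical axes, from 0) of each of the 10 genes in the IPF and sham lungs; each point is 1 lung, the bar the mean and the whisker the SD (n = 5). The groups are apart for Lpcat1 (IPF from 107.9 FPKM, sham up to 99.6) and Sftpb (IPF up to 1577, sham from 1638) and overlap for the other 8, and sham 1 lies far below the rest for Sftpc.

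The 3 genes with the largest differences were Lpcat1, Abca3 and Sftpb. Their start regions are shown because the set includes Nkx2-1, the lung homeodomain factor known to act on surfactant genes, and its core motif was searched in them. Each window runs from 250 bases before to 50 bases after the RefSeq start on GRCm38.p6, 5′ to 3′ on the gene's strand. Capitals mark the NKX2-1 core CAAG and the GC box GGGCGG, each on either strand, and no base belongs to both. The windows are chr13:73466981-73467280 on the plus strand for Lpcat1, chr6:72304360-72304659 on the plus strand for Sftpb and chr17:24351773-24352072 on the plus strand for Abca3.
Lpcat1: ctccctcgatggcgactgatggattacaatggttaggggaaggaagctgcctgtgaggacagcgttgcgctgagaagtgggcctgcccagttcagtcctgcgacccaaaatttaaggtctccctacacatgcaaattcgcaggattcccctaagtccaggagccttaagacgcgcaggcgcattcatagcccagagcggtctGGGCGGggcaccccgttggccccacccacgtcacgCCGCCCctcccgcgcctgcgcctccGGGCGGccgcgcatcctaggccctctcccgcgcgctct
Sftpb: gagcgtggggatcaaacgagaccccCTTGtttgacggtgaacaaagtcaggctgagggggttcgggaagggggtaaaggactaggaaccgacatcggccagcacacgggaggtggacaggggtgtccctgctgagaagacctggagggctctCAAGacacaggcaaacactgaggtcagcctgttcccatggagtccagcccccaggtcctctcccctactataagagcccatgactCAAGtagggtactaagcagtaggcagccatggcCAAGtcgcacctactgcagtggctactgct
Abca3: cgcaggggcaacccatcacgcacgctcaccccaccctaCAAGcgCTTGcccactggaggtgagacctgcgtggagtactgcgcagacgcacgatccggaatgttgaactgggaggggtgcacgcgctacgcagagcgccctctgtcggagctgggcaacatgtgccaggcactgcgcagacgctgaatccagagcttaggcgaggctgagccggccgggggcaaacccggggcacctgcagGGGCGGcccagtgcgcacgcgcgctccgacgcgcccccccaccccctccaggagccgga
The Lpcat1 window held 0 core motifs and 3 GC boxes, that of Sftpb 4 core motifs and 0 GC boxes, and that of Abca3 2 core motifs and 1 GC box. Their GC content was 64.0%, 58.3% and 69.7%. The core is short and occurs in 90.6% of 32851 RefSeq windows of the same length, and the GC box in 35.7%, so these matches are a description of the letters and not of binding. Of the 10 genes, 7 had a window in the RefSeq table. None of these 7 held the clock E-box CACGTG, which 7.15% of all windows hold.

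Among the hydrophobic surfactant proteins, Sftpb was lower in IPF by its values, though it did not pass the genome-wide test. Sftpb (ENSMUSG00000056370, chr6:72304610-72314371) encodes the protein that is indispensable for lamellar bodies and for breathing at birth. It stood at 1433, 1269, 1577, 1526 and 1368 FPKM in IPF 1 to 5 and at 1661, 1657, 1854, 1662 and 1638 FPKM in sham 1 to 5. All 5 IPF lungs lay below all 5 sham lungs, with IPF 3 and sham 5 the closest of the 2 groups. The means were 1435 FPKM ± 123 and 1694 ± 89.8 (SD, n = 5), a log2 difference of -0.24 ± 0.12 (SE) with a 95% interval from -0.51 to 0.025. The limma adjusted p was 0.305, whereas the exact two-sided permutation test on this gene alone gave p = 0.00794, the smallest that 5 against 5 allows, with no adjustment for the number of genes. With limma voom on the recovered reads, which weights each value by its expected precision at that depth, Sftpb passed at an adjusted p of 0.0432. Over the other alternatives the limma adjusted p ran from 0.113, without the variance trend, to 0.668, without the filter, and Sftpb did not pass. The limma SE and interval draw on the variance trend over all genes as well as on this gene's own values.

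Sftpc, the gene that defines AT2 cells most sharply, did not pass the test and had one low lung. Sftpc (ENSMUSG00000022097, chr14:70520949-70524081) stood at 13689, 15599, 15458, 14999 and 14571 FPKM in IPF 1 to 5. In sham it stood at 9437 FPKM in replicate 1 and at 15488, 16514, 15766 and 14937 FPKM in replicates 2 to 5. The 5 IPF values and the other 4 sham values were interleaved, with sham 1 alone below them. The coefficient of variation was 5.19% in IPF and 19.7% in sham, or 4.19% in sham without sham 1. The log2 difference was 0.07 ± 0.36 (SE), with a 95% interval from -0.71 to 0.85 and a limma adjusted p of 0.946. Without sham 1 the log2 difference was -0.08, at an adjusted p of 0.921, and with quantile normalization it was 0.54, at 0.393. Without the variance trend the limma adjusted p was 0.85, and the SE given here draws on that trend.

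The collectins, which bind microbial sugars and help to regulate the surfactant pool, overlapped between groups. Sftpa1 (ENSMUSG00000021789, chr14:41131782-41136452) ranged from 1083 to 1328 FPKM in IPF and from 1055 to 1336 FPKM in sham. Its log2 difference of -0.0094 had a 95% interval from -0.26 to 0.25, at a limma adjusted p of 0.979. Sftpd (ENSMUSG00000021795, chr14:41172214-41185149) ranged from 204.5 to 298.6 FPKM in IPF and from 175.6 to 276.8 FPKM in sham. Its log2 difference was -0.023, with a 95% interval from -0.34 to 0.29 and an adjusted p of 0.956. The lowest value of both genes was that of sham 1. Without it the sham values ran from 1220 to 1336 FPKM for Sftpa1 and from 243.8 to 276.8 FPKM for Sftpd, with log2 differences of -0.059 and -0.14 at limma adjusted p of 0.817 and 0.535.

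**Figure D2:**
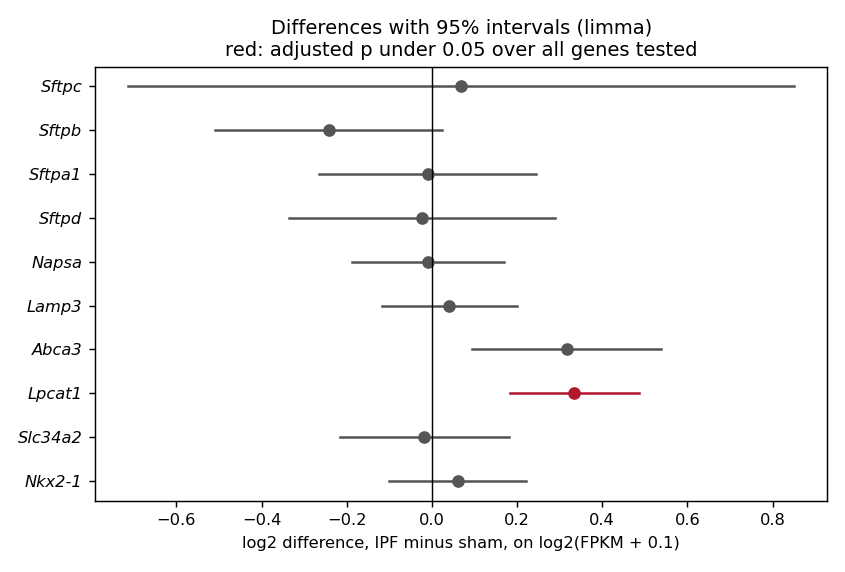
Log2 difference of each of the 10 genes, IPF minus sham, on log2(FPKM + 0.1) (horizontal axis) with its unadjusted 95% limma interval; red marks an adjusted p under 0.05 over all genes tested. Only Lpcat1 is red (0.33), Abca3 has an interval above 0 (0.32) but an adjusted p of 0.0996, and 7 genes lie within 0.1 of 0.

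Of the genes that make and load the lipid, Lpcat1 rose in IPF. Lpcat1 (ENSMUSG00000021608, chr13:73467197-73516422) encodes the AT2 acyltransferase that remodels lysophosphatidylcholine into the dipalmitoyl form. It stood at 116.2, 134.1, 131.5, 127.6 and 107.9 FPKM in IPF 1 to 5 and at 92.3, 99.5, 99.6, 97.9 and 98.8 FPKM in sham 1 to 5. Every IPF lung was above every sham lung, and the sham lungs were close to each other. The means were 123.5 FPKM ± 11.1 and 97.6 ± 3.04 (SD, n = 5), a 1.26-fold rise with a 95% interval from 1.14 to 1.4. The log2 difference was 0.33 ± 0.069 (SE), with a limma adjusted p of 0.0163 and an exact two-sided permutation p of 0.00794 for the gene alone. The adjusted p was 0.00344 to 0.0477 when each lung was left out in turn. After quantile normalization, which gives every lung the same distribution of values, it was 0.0608 and the call was lost.

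Abca3 (ENSMUSG00000024130, chr17:24351950-24410201) encodes the transporter that moves phospholipid into lamellar bodies. It stood at 40.7, 35.2, 42.5, 47.4 and 37.9 FPKM in IPF 1 to 5 and at 38.3, 29.6, 31.0, 28.7 and 36.2 FPKM in sham 1 to 5. The groups overlapped, with 3 of the 5 IPF lungs above all sham lungs. The log2 difference was 0.32 ± 0.10 (SE), with a 95% interval from 0.095 to 0.54. The limma adjusted p was 0.0996, and the exact two-sided permutation p was 0.0397 for the gene alone. Abca3 did not pass under any alternative run, with adjusted p between 0.0523, without sham 1, and 0.214.

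The remaining AT2 genes of the set overlapped between groups. Slc34a2 (ENSMUSG00000029188, chr5:53038081-53071664), the sodium phosphate cotransporter of the apical membrane, ranged from 354.8 to 442.3 FPKM in IPF and from 374 to 460.3 FPKM in sham. Lamp3 (ENSMUSG00000041247, chr16:19653378-19706375), a membrane protein of the lamellar body, ranged from 159.8 to 195 FPKM in IPF and from 154.5 to 181.3 FPKM in sham. Napsa (ENSMUSG00000002204, chr7:44572380-44586862), the aspartic protease that takes part in processing the surfactant protein B precursor, ranged from 87.6 to 102.2 FPKM in IPF and from 77.1 to 102 FPKM in sham. The groups overlapped for these 3 genes. Without sham 1 the sham values of Napsa ran from 94.97 to 102 FPKM, and its log2 difference was -0.078. That of Lamp3 was 0.013. Nkx2-1 (ENSMUSG00000001496, chr12:56531958-56536908) ranged from 62.0 to 76.6 FPKM in IPF and from 60.2 to 70.2 FPKM in sham, so the factor's own transcript did not separate the groups either. The log2 differences were -0.018 for Slc34a2, 0.041 for Lamp3, -0.0084 for Napsa and 0.06 for Nkx2-1, with limma adjusted p from 0.707 to 0.974. Their 95% intervals lay between -0.22 and 0.22.

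Antisense or overlapping genes lie at 4 of the 10 loci, and the use of strand in counting is not given in the sources used here. The partner of Slc34a2, Gm17182, averaged 1.33 FPKM over all lungs, that of Napsa, Gm15396, 0.0167 FPKM, and that of Abca3, D330041H03Rik, 0.937 FPKM. The partner of Nkx2-1, Gm26973, averaged 5.92 FPKM. None of the 3 partners that could be tested passed, at limma adjusted p from 0.117 to 0.682.

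**Figure D3:**
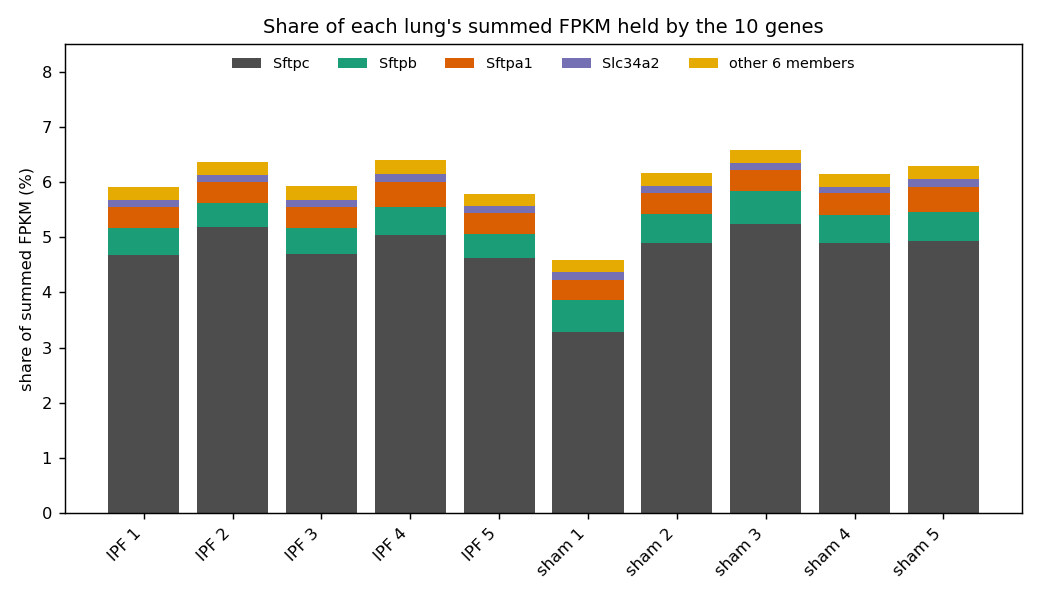
Share of each lung's summed FPKM, in percent (vertical axis, from 0), held by Sftpc, Sftpb, Sftpa1, Slc34a2 and the other 6 genes together, for IPF 1 to 5 and sham 1 to 5. Totals lie between 5.78% and 6.58% except in sham 1, at 4.58%, where Sftpc holds 3.28%.

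Together the 10 genes held a similar share of the lung transcriptome in both groups. They took 5.92%, 6.36%, 5.93%, 6.40% and 5.78% of summed FPKM in IPF 1 to 5 and 4.58%, 6.16%, 6.58%, 6.14% and 6.29% in sham 1 to 5. The means were 6.08% ± 0.285 and 5.95% ± 0.786 (SD, n = 5), a difference of 0.127 percentage points that is smaller than either SD. Without sham 1 the sham mean was 6.29% ± 0.206 and the difference -0.215 percentage points, below the IPF SD and just above that of sham. Sftpc made up 78.3% to 81.6% of the sum of the 10 genes except in sham 1, where it made up 71.7%. The 9 genes other than Sftpc held 1.23% ± 0.0826 in IPF and 1.30% ± 0.0518 in sham. Within this, Sftpb held 0.468% ± 0.0382 in IPF and 0.549% ± 0.0325 in sham, and its shares did not overlap. As a share of reads, which favours long genes, the 10 genes took 2.61% ± 0.142 and 2.61% ± 0.329.

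The club cell gene Scgb1a1 was the other very abundant transcript of these lungs and ranged widely between lungs. It took 1.12% to 7.87% of summed FPKM, and Sftpc exceeded it in IPF 1, 2, 4 and 5 and in sham 5. Since FPKM is scaled by 1 library size per lung, each gene was also set against the mean of the other 9 in the same lung. On this scale, added after the data were seen, Sftpb remained below and Lpcat1 above in every IPF lung against every sham lung. Their log2 differences were -0.33 and 0.31, and that of Abca3 was 0.29 with overlap.

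**Figure D4:**
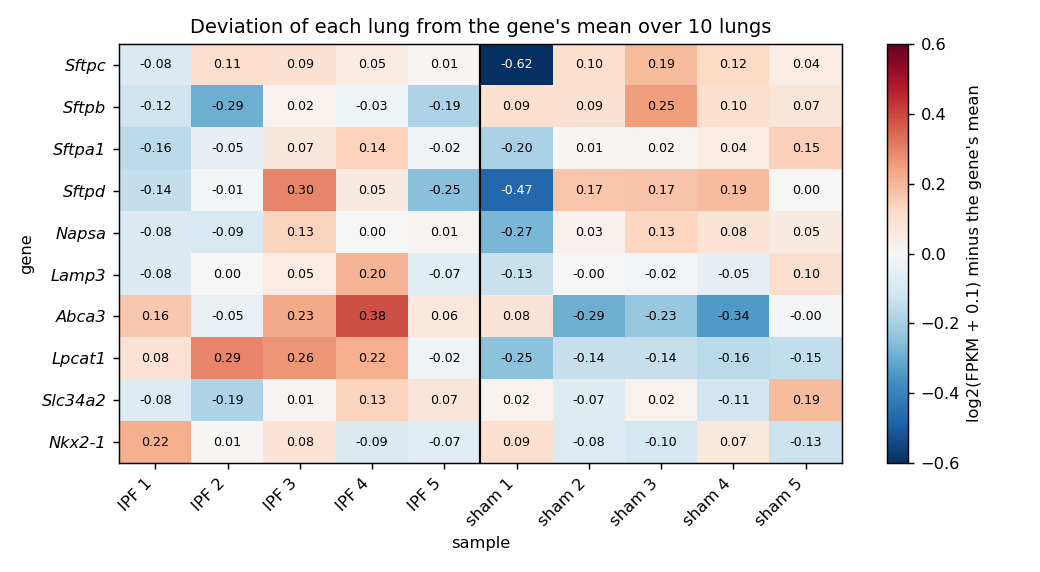
Deviation of log2(FPKM + 0.1) from the gene's mean over 10 lungs, for each gene (rows) and lung (columns, IPF left of the line, sham right); red is above and blue below the mean, with the colour scale ending at 0.6 on either side. The sham 1 column is blue for 6 genes, down to -0.62 for Sftpc and -0.47 for Sftpd, but not for Sftpb, Abca3, Slc34a2 or Nkx2-1.

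Variation between lungs cut across the groups. Sham 1 was the lowest of the 10 lungs for 6 genes, Sftpa1, Sftpc, Sftpd, Lamp3, Napsa and Lpcat1, and the highest for none. Its mean deviation over the 10 genes was -0.165 on the log2 scale, whereas IPF 3 and IPF 4 stood highest at 0.124 and 0.107. In sham 1 Sftpb (1661 FPKM), Abca3 (38.3 FPKM) and Slc34a2 (409.5 FPKM) were within or above the range of the other sham lungs, so the 10 genes were not lower there by a common factor.

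Genes outside the set that are also known from AT2 cells included 2 called genes. Of 14 further AT2 genes, 2 were called higher in IPF and 0 lower, together 14.3% of the list, against 3.71% and 2.14% of all genes. At an unadjusted p under 0.05 limma gave 5 of the 14, against 19.5% of all genes, and the median log2 difference was 0.028. Acoxl, an acyl-CoA oxidase homologue, stood at 16.8, 17.2, 20.5, 19.4 and 12.7 FPKM in IPF 1 to 5 and at 9.90, 13.1, 9.29, 9.46 and 11.5 FPKM in sham 1 to 5. Its groups overlapped only through IPF 5 and sham 2, the log2 difference was 0.69 at a limma adjusted p of 0.0129, and the call held in all 21 other fits. Hc, complement component C5, averaged 114.5 FPKM ± 23.2 against 82.2 ± 3.15 (SD, n = 5), a log2 difference of 0.46 at a limma adjusted p of 0.0352. Every IPF lung was above every sham lung for Hc, but its adjusted p was 0.0529 to 0.0859 without IPF 2, IPF 3 or any 1 of the sham lungs. It also missed the limit in 5 of the 11 alternatives that changed the scaling, filter or model, up to 0.0972 with quantile normalization. The 2 most abundant of these genes were the chemokine Cxcl15, at 592 FPKM ± 125 and 412 ± 62.2, and the lysozyme Lyz1, at 424 ± 203 and 450 ± 104. Neither passed in the limma fit of all lungs, and Cxcl15 had an adjusted p of 0.105, or 0.020 without IPF 5.

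The transcription factors of the alveolar epithelium did not pass. Of 12 tested by limma, 0 were called, 4 had an unadjusted p under 0.05, which held for 19.5% of all genes, and the median log2 difference was 0.079. Cebpa, which promotes AT2 maturation, stood at 61.0 FPKM ± 6.71 in IPF and 60.6 ± 3.60 in sham (SD, n = 5). Hopx, which AT1 cells express most strongly, stood at 267.7 ± 52.4 and 254.4 ± 26.9.

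Genes of phosphatidylcholine and fatty acid synthesis, the supply of the surfactant lipid, included called genes in both directions. Of 22 tested by limma, 5 were called higher in IPF and 2 lower, together 31.8% of the list, 14 had an unadjusted p under 0.05, and 8 did not overlap between groups. Over all genes 3.71% were called higher, 2.14% lower, 19.5% had an unadjusted p under 0.05 and 7.29% did not overlap. The median log2 difference was 0.072. These genes act in many cell types of the lung, and the list was written with earlier results of these data known.

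Lpcat3, the acyltransferase that places polyunsaturated chains on phosphatidylcholine, was called like its paralogue Lpcat1. It stood at 19.2, 18.6, 20.8, 19.2 and 16.9 FPKM in IPF 1 to 5 and at 14.6, 13.4, 14.3, 14.9 and 14.6 FPKM in sham 1 to 5. All IPF lungs were above all sham lungs, with a log2 difference of 0.39 at a limma adjusted p of 0.00396. Of the other paralogues, Lpcat2 averaged 2.54 FPKM ± 0.471 against 1.89 ± 0.121 without overlap and did not pass, at a limma adjusted p of 0.102. Lpcat4, at 4.18 FPKM ± 0.727 and 4.12 ± 0.328, had a log2 difference of 0.0088. These 2 paralogues are named after their values were seen.

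Scd1, the desaturase that makes monounsaturated from saturated fatty acids, was the most abundant gene of the list. It stood at 573.6, 613, 807.6, 798.1 and 507.6 FPKM in IPF 1 to 5 and at 351.1, 422.8, 459.1, 330.3 and 400.4 FPKM in sham 1 to 5. The groups did not overlap, and the log2 difference was 0.73 at a limma adjusted p of 0.0160. Its paralogue Scd2 stood at 250.7 FPKM ± 18.2 and 237.2 ± 19.8 (SD, n = 5) and did not pass.

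Acaca, which makes malonyl-CoA, and Srebf1 and Insig1, a lipogenic transcription factor and a brake on its processing, were also called higher, and they are named after their values were seen. Their log2 differences were 0.43, 0.21 and 0.29 at limma adjusted p of 0.0317, 0.0414 and 0.0345. Each missed the limit when single lungs were left out. Acaca reached an adjusted p of 0.0505 to 0.0778 without IPF 1, IPF 2 or sham 1 to 4. Insig1 reached 0.0669 to 0.0899 without IPF 2, 3 or 4 or sham 1, 4 or 5. Srebf1 reached 0.0629 to 0.109 without IPF 1, 3 or 4 or any 1 of the sham lungs. In the 11 alternatives that kept all lungs, Acaca missed the limit in 3, Insig1 in 3 and Srebf1 in 7, up to 0.0831, 0.0741 and 0.0951.

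Lpin1 and Elovl6 moved the other way. Lpin1, the phosphatidate phosphatase that makes diacylglycerol for phosphatidylcholine, stood at 3.66, 3.50, 3.43, 4.14 and 6.06 FPKM in IPF 1 to 5 and at 11.2, 6.81, 10.1, 6.57 and 8.44 FPKM in sham 1 to 5. All IPF lungs were below all sham lungs, the log2 difference was -1.04 at a limma adjusted p of 0.00825, and the call held in all 21 other fits, as did those of Lpcat3 and Scd1. Elovl6, which elongates palmitate, averaged 1.44 FPKM ± 0.123 against 2.14 ± 0.359 (SD, n = 5) without overlap, a log2 difference of -0.53 at a limma adjusted p of 0.0270. Without IPF 1, 2 or 4 or sham 3, 4 or 5 that p was 0.0503 to 0.0696, and it was up to 0.0721 in 2 of the 11 alternatives that kept all lungs. The fat cell genes Adipoq and Plin1 were near 0, at no more than 0.881 FPKM and 0.205 FPKM in any lung. The clock genes named above separated the groups as these genes did, and their part in the result was not tested.

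**Figure D5:**
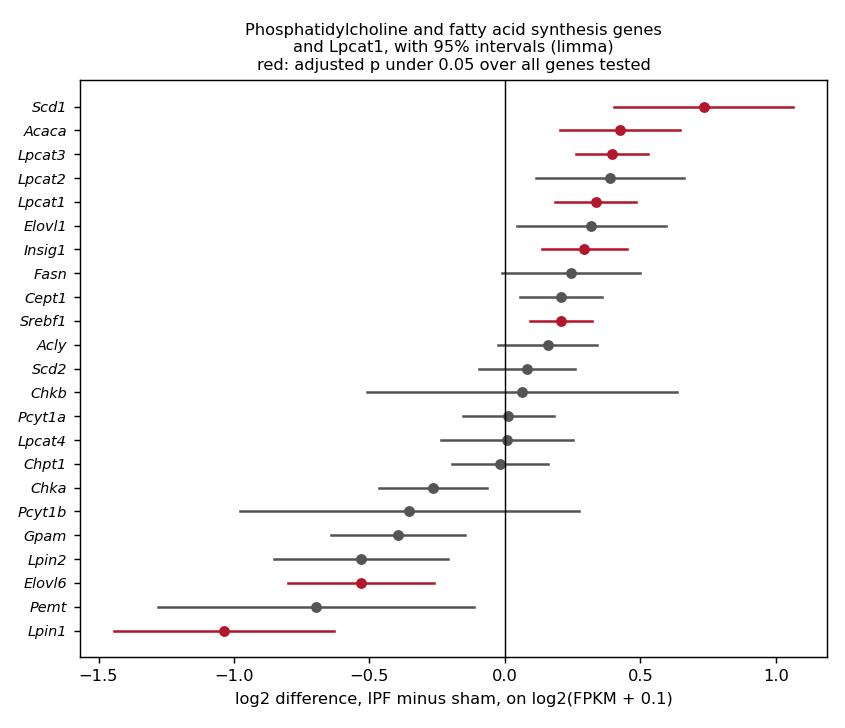
Log2 difference, IPF minus sham, on log2(FPKM + 0.1) (horizontal axis) with unadjusted 95% limma intervals for the 22 genes of phosphatidylcholine and fatty acid synthesis and for Lpcat1; red marks an adjusted p under 0.05. Differences run from -1.04 for Lpin1 to 0.73 for Scd1, and 5 of the 22 are red above 0 and 2 below.

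Among 14 genes of lamellar body trafficking and secretion, 0 were called higher and 2 lower by limma, together 14.3% of the list, against 3.71% and 2.14% of all genes, with a median log2 difference of 0.033. At an unadjusted p under 0.05 there were 5, against 19.5% of all genes. Vamp2, a vesicle SNARE used in exocytosis by many cells, stood at 25.0 FPKM ± 1.67 in IPF and 31.9 ± 2.12 in sham (SD, n = 5), without overlap. Its log2 difference was -0.35 at a limma adjusted p of 0.00866. Atp11a, a phospholipid flippase, stood at 47.2 ± 3.25 and 57.7 ± 5.03, a log2 difference of -0.29 at a limma adjusted p of 0.0359. Without IPF 1, 2 or 5 or sham 3, 4 or 5 that p was 0.0566 to 0.0905, and the call was lost in 5 of the 11 alternatives that kept all lungs, up to 0.119 after scaling to the summed FPKM. The most abundant genes of the list did not pass. They were Adgrf5, a receptor that restrains the surfactant pool, at 217.9 FPKM ± 28.5 and 193.5 ± 15.5, and Ctsh, a protease of surfactant protein processing, at 67.5 ± 7.41 and 82.1 ± 8.35. Ctsh passed without sham 1 and without IPF 5, at limma adjusted p of 0.0294 and 0.0435, and in 2 of the 11 alternatives that kept all lungs.

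Of 19 genes of surfactant clearance and alveolar macrophages, limma called 0, and 5 had an unadjusted p under 0.05, against 19.5% of all genes. The median log2 difference was 0.053. The lipid receptor Cd36 averaged 381.3 FPKM ± 50.3 against 302.0 ± 32.8 (SD, n = 5) at a limma adjusted p of 0.115, or 0.0352 with limma voom, and the macrophage lectin Chil3 averaged 245.1 ± 77.4 against 217.4 ± 51.1.

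Markers of other lung cells show what moved beside the AT2 genes, and their part in the results above was not tested. For all these lists the shares over all genes are 3.71% called higher, 2.14% lower and 19.5% at an unadjusted p under 0.05. At that unadjusted limit limma gave 8 of 10 leukocyte, 4 of 10 endothelial, 3 of 13 AT1 and 4 of 10 pan-epithelial markers. Of 10 leukocyte markers 5 were called higher in IPF and 0 lower, with a median log2 difference of 0.90 and a summed level of 76.0 to 292.2 FPKM in IPF against 28.7 to 80.1 FPKM in sham. Without IPF 5, where S100a8 and S100a9 were highest, the IPF sums ended at 95.4 FPKM. The B cell genes Ms4a1 and Cd79a had log2 differences of 1.19 and 1.02, and the pan-leukocyte gene Ptprc one of 0.42, at limma adjusted p from 0.00336 to 0.00825. The T cell gene Cd4, also called, is named after its value was seen, with a log2 difference of 0.48 at a limma adjusted p of 0.0440. Without any 1 lung other than IPF 5 that p was 0.0605 to 0.0992, and the call was lost in 4 of the 11 alternatives that kept all lungs. The most abundant leukocyte markers, S100a8 and S100a9, did not pass. The neutrophil gene Ly6g was near 0, at no more than 0.480 FPKM in any lung. Of 10 endothelial markers 1 was called higher, Cldn5, with a log2 difference of 0.56 at a limma adjusted p of 0.0107, and the median was 0.19. The most abundant of the rest, Plvap, averaged 381.5 FPKM ± 32.2 and 380.9 ± 18.2 (SD, n = 5). The summed level of all 10, Cldn5 included, was 1707 to 1920 FPKM in IPF and 1540 to 1623 FPKM in sham, without overlap. Taken singly, 2 of the 10 did not overlap, against 7.29% of all genes.

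Among the AT1, pan-epithelial, ciliated and secretory markers, limma called Lmo7 and Krt7, to be read against the shares over all genes given above. Of 13 AT1 markers limma called 0 higher and 1 lower, Lmo7, with a median log2 difference of -0.042 and a summed level of 2227 to 2806 FPKM in IPF and 2456 to 2749 FPKM in sham. Of 10 pan-epithelial genes 0 had a positive difference and 1 was called lower, Krt7, with a median of -0.17 and a summed level of 559.3 to 696.9 FPKM against 633.4 to 718.8 FPKM. Lmo7 had a log2 difference of -0.56 at a limma adjusted p of 0.0344 and Krt7 one of -0.30 at 0.0345. Without IPF 2, 3 or 4 or sham 1, 2, 3 or 5 the p of Lmo7 was 0.0571 to 0.0883, and without IPF 2 to 5 or sham 2, 3 or 5 that of Krt7 was 0.0518 to 0.0878. In the 11 alternatives that kept all lungs Lmo7 missed the limit in 3 and Krt7 in 4, up to 0.0672 and 0.0731. The most abundant genes of these lists did not pass. They were the AT1 genes Ager, at 847.9 FPKM ± 93.2 and 882.4 ± 34.9 (SD, n = 5), and Cav1, at 513.5 ± 59.7 and 449.3 ± 20.5, and the junction genes Cdh1, at 79.9 ± 11.0 and 79.8 ± 2.30, and Cldn18, at 206.2 ± 14.8 and 232.8 ± 14.0. Of 10 ciliated and 7 secretory airway markers tested, 0 were called by limma, 1 and 0 had an unadjusted p under 0.05, and the medians were -0.30 and 0.17. Tppp3 and Sec14l3, the most abundant ciliated markers, averaged 156.5 FPKM ± 20.3 and 360.5 ± 58.1 in IPF and 156.8 ± 29.1 and 431.0 ± 28.4 in sham. Sec14l3 passed with quantile normalization alone, at 0.0489. Log2 differences were negative for 9 of the 10 ciliated markers, down to -0.64, and 0.0089 for Tppp3. The summed level of the secretory markers was 3713 to 27465 FPKM in IPF and 11530 to 22996 FPKM in sham, and IPF 3 was the highest lung. Without IPF 3 the IPF sums ended at 13253 FPKM. The log2 difference of the club cell gene Cyp2f2 then went from -0.43, at a limma adjusted p of 0.579, to -0.81 at 0.0308, and that of Scgb1a1 from -1.12 at 0.317 to -1.57 at 0.0746.

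The transcripts most like the mean of the 10 genes over the 10 lungs were, of 13435 genes compared, Ormdl2, Dcps, Kazald1, Car8, Tsen34 and Pycard. Their Pearson correlation with that mean ran from 0.936 for Ormdl2 to 0.887 for Pycard. The likeness is a description over lungs that share the low value of sham 1. Without sham 1, only 1 of these 6, Tsen34, stayed among the 6 most alike.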

How the data were processed

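The labels give 5 IPF and 5 sham lungs. Per the study's methods, whole-lung RNA was sequenced as paired reads, trimmed with Fastp, aligned with HISAT2 and quantified with StringTie. The authors deposited FPKM values, 1 per gene and sample, scaled to gene length and a library size. The submitters' processing notes name Bowtie 0.12.2 instead, and the gene positions are those of GRCm38: 83.4% of 20822 coding genes start within 1000 bases of RefSeq GRCm38.p6. FPKM times length came out as whole multiples of 1 step per sample, within 0.02, for all values, which gave the reads behind them, 15483046 to 19026843 per sample. The library size of the scaling was 0.959 to 1.03 times these reads, so it was not their plain total. The sequence reads themselves were not analysed here.

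The comparison of IPF with sham used limma 3.58.1 (R 4.3.3), fitted without covariates and with variances moderated along a trend, to log2(FPKM + 0.1). Only genes whose FPKM averaged 0.1 or more entered, and Benjamini-Hochberg adjustment ran over all of them. Exact permutation tests of single genes were two-sided. The study's own test works on counts. It was replaced by limma on the FPKM values as deposited, with limma voom on the recovered reads as an alternative. Other steps ran in Python 3.11.15 (pandas 2.3.3, numpy 2.4.6). The fit was tested on simulated data. The samples share replicate numbers. The labels do not say that a number marks a shared litter or day, nor that each sample is a separate litter. The p-values therefore measure the spread between these lungs, and those of limma draw also on the variance trend over all genes.

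The 10 genes and all lists were chosen with earlier results of these data known. The lists, written from general knowledge, cover further AT2 genes, alveolar transcription factors, lipid synthesis, lamellar bodies, surfactant clearance, and AT1, secretory, ciliated, pan-epithelial, transitional, endothelial, fibroblast and smooth muscle, and leukocyte markers. Named from each list were up to 4 genes with the smallest adjusted p under 0.05 and the 2 with the highest mean FPKM, besides the 6 genes most like the mean of the 10, and Xist, Ddx3y, Arntl and Dbp. One called leukocyte marker is counted but not reported here. Promoter windows came from RefSeq GRCm38.p6 and were matched by symbol for 7 of 10 genes (not Sftpc, Sftpd and Napsa). The alternatives were other pseudocounts (1 and 0.01), filters, scalings, variance models, the genes included, a replicate block and leaving out each lung.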

Additional observations from a re-analysis of the deposited data

Results flagged for a closer look

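In each group of 5 lungs, the 10 genes, their summed share and the named list genes were checked at both ends. The check sought a single lung far from the other 4 (gap over range above 0.71). Of 108 groups examined 15 had such a lung, and chance gives about 1 in 20.

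Sham 1 accounts for most of those among the surfactant and AT2 genes. It stood at 9437 FPKM for Sftpc, with the other sham lungs at 14937 to 16514, at 77.1 FPKM for Napsa against 94.97 to 102, and at 92.3 FPKM for Lpcat1 against 97.9 to 99.6. Its summed share of the 10 genes was 4.58%, with the others at 6.14% to 6.58%. For Sftpb it was sham 3 that lay apart, at 1854 FPKM against 1638 to 1662. Leaving out sham 1 or sham 3 ended no call among the 10 genes.

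Sham 1 was also apart for Ctsh, at 67.4 FPKM against 84.3 to 88.2, for Adgrf5, at 220.2 FPKM against 183.3 to 193.8, and for the collagen gene Col1a1, at 128.1 FPKM against 92.5 to 102.0. Among the IPF lungs, IPF 4 had 154.8 FPKM of Hc against 96.6 to 110.0. IPF 3 had 768.8 FPKM of Lyz1 against 276.0 to 415.4 and 800.7 FPKM of the club cell gene Cyp2f2 against 163.9 to 257.6. IPF 5 had 6.06 FPKM of Lpin1 against 3.43 to 4.14, 617.8 FPKM of the caveolar gene Cav1 against 468.5 to 501.6, and the highest neutrophil genes, S100a9 at 185.5 FPKM against 29.3 to 41.2 and S100a8 at 78.9 FPKM against 14.3 to 20.4.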

How the results depend on the processing

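The 21 alternative fits left 1 of the 10 genes called, Lpcat1, except quantile normalization with 0 and limma voom on recovered reads with 2, Lpcat1 and Sftpb. Under quantile normalization the log2 difference of Lpcat1 was 0.27 at an adjusted p of 0.0608, and 0 of the 10 genes did not overlap. Under voom that of Sftpb was -0.25 at an adjusted p of 0.0432. Quantile normalization also moved Sftpc to a log2 difference of 0.54, at an adjusted p of 0.393. The cause of these changes was not tested. Genes that were not called changed sign when single lungs were left out, with log2 differences from -0.059 to 0.029 for Sftpa1, -0.077 to 0.12 for Sftpc, -0.14 to 0.037 for Sftpd, -0.0052 to 0.070 for Lamp3, -0.078 to 0.023 for Napsa and -0.054 to 0.027 for Slc34a2. Scaling to the summed FPKM gave Napsa a difference of 7.3e-05. The genes called over all lists, 23 in the fit of all lungs, were 15 without the filter, 15 after scaling to the summed FPKM, 15 without the variance trend and 13 to 31 with 1 lung left out, 13 without IPF 2 or sham 3 and 31 without IPF 5. Of the 6 most alike genes, 1 remained without sham 1 and 3 after removing the group means. After each gene's group mean was removed, lungs of the same number correlated at -0.020 to 0.095. The replicate block called 1045 genes against 1196. The adjusted p of Lpcat1 with the block was 0.0307, and no call among the 10 genes changed, while 20 genes of the other lists were called against 23. With group means removed, IPF lungs 1, 2 and 5 correlated best with the sham lung of their own number. These correlations were low, at 0.039 to 0.095, and the labels do not explain them. The edgeR and DESeq2 alternatives on recovered reads were not run. With 5 lungs a group the standard error of the log2 difference was 0.069 to 0.36 for the 10 genes. Abca3 missed the limit at a log2 difference of 0.32, so changes of that size could go uncalled.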

Other observations

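Genes of the transitional alveolar epithelium, a state AT2 cells pass through on the way to AT1 cells, did not move one way. Of 10 tested by limma, 1 was called higher in IPF and 2 lower, together 30% of the list, against 3.71% and 2.14% of all genes. At an unadjusted p under 0.05 limma gave 8 of the 10, against 19.5% of all genes, and the median log2 difference was -0.16. The differences ran from -0.76 to 1.30, the highest in a gene that was not called. The cell cycle inhibitor Cdkn1a stood at 25.6 FPKM ± 4.64 in IPF and 17.6 ± 1.41 in sham (SD, n = 5), a log2 difference of 0.53 at a limma adjusted p of 0.0180, and passed in all 21 other fits. The growth factor Areg and the lipocalin Lcn2 fell, with log2 differences of -0.76 and -0.73 at limma adjusted p of 0.0253 and 0.0291. Without IPF 1, 2 or 4 or sham 3 or 5 the p of Areg was 0.0511 to 0.0661, and without IPF 2 or sham 2, 3 or 4 that of Lcn2 was 0.0635 to 0.0714. In the 11 alternatives that kept all lungs Areg missed the limit in 1 and Lcn2 in 2, up to 0.0596 and 0.0582. The keratins Krt8, at 69.7 FPKM ± 11.4 and 85.9 ± 7.76, and Krt19, at 61.0 ± 8.31 and 77.0 ± 7.61, did not pass in the limma fit of all lungs, though Krt19 passed without IPF 3 and without sham 1, at 0.0341 and 0.0490.

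Of 10 fibroblast and smooth muscle markers, limma called 1 higher and 0 lower, against 3.71% and 2.14% of all genes, and gave 1 at an unadjusted p under 0.05, against 19.5%, with a median log2 difference of -0.14. Pdgfra, a receptor of alveolar fibroblasts, which lie beside AT2 cells, averaged 57.4 FPKM ± 3.95 in IPF and 45 ± 4.30 in sham (SD, n = 5) without overlap. Its log2 difference was 0.35 at a limma adjusted p of 0.0212, or 0.0599 without IPF 4 and 0.0529 without sham 2. It also missed the limit in 2 of the 11 alternatives that kept all lungs, up to 0.0559 with quantile normalization. The collagen genes Col1a1, at 93.1 FPKM ± 28.5 and 103.8 ± 14.2, and Col3a1, at 148.6 ± 35.0 and 155.7 ± 14.7, did not pass.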
